A study of Homo sapiens with 4 samples.

Results

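The genes described here are 49 long genes of neurons and of cell adhesion, of 62663 genes in the GENCODE annotation of hg38. The list was fixed by name and length and not by contact values, but earlier results of these data were known when it was chosen. A contact was assigned to a member when a mapped region overlapped the span of the gene, with no widening. In K562 cells, a human erythroleukemia line, contacts of ribosomal RNA genes (rDNA) were mapped genome-wide by 4C-rDNA. In this method cross-linked DNA is cut with EcoRI, ligated, shortened with FaeI and amplified from a primer pair inside the rDNA intergenic spacer. Sequenced fragments are taken as places that were ligated to rDNA, and whether each of them was ligated was not tested here. The 2 groups were untreated cells and cells grown for 108 h with 50 μM hemin, which turns K562 cells towards the erythroid fate, each with 2 replicate libraries of the same line. The whole series held 50751 and 50221 mapped regions for untreated cells and 47042 and 49689 after hemin, with 31721628, 34000240, 19548906 and 20577487 reads. Of these regions, 857, 860, 940 and 974 lay in members. The study's methods call the replicates biological without saying whether they were separate cultures, so p-values measure only the spread between these libraries.

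The listed genes encode molecules that neurons use to recognise each other and to wire circuits. Cadherins, contactins, teneurins and IgLON proteins sit on the cell surface and bind partners across the cell gap, receptor tyrosine phosphatases and ROBO receptors pass guidance cues into growing axons, and neuregulins act through the receptor ERBB4. Many of these genes are mostly intron and are among the longest of the genome. The list also held genes with other functions: PDE4D encodes a cyclic AMP phosphodiesterase, SYNE1 a giant protein of the nuclear envelope, SGCD and SGCZ sarcoglycans of muscle and other membranes, and SOX5 a transcription factor. Measured lengths ran from 352 kb for CNTN3 to 2474 kb for RBFOX1, with a median of 1163 kb against 27.5 kb over 20033 protein-coding genes. Members made up 35 of the 71 protein-coding genes longer than 1 Mb, lay on 17 chromosomes, and covered 60.2 Mb. The number of gene copies in K562 DNA and the expression of these genes were not analysed here.

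The contacts themselves are short sequences, many of them carrying a cut site for EcoRI. The following leading regions, those with the most reads of a gene in either group, are shown because untreated and hemin-treated cells gave different places in one and the same gene (DAB1, NRG3 and GPC6) or because nearly all reads of the gene came from one group (SYNE1, TENM4 and CNTN3). Each sequence is as deposited, plus strand of hg38, 5′ to 3′. The 6 bases of the EcoRI site (GAATTC) are in capitals where present, and several runs carry the FaeI site (CATG) at the other end.
DAB1 in untreated cells, chr1:57035439-57035528: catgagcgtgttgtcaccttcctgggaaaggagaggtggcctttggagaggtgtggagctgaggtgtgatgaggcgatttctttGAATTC
DAB1 after hemin, chr1:58148987-58149035: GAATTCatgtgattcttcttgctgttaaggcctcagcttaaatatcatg
NRG3 in untreated cells, chr10:82874691-82874770: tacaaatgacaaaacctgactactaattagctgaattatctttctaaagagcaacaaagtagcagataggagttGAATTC
NRG3 after hemin, chr10:82163795-82163899: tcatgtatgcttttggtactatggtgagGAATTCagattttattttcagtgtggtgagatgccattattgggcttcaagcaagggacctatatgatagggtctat
GPC6 in untreated cells, chr13:93260350-93260444: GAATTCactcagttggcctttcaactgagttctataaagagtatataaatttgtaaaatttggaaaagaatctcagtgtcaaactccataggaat
GPC6 after hemin, chr13:93260976-93261105: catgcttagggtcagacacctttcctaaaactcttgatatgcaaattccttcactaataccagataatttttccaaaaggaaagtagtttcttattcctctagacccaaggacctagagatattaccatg
SYNE1 in untreated cells, chr6:152358756-152358805: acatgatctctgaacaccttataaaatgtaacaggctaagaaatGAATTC
TENM4 after hemin, chr11:78663441-78663481: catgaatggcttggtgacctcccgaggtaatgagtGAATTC
CNTN3 after hemin, chr3:74275860-74275922: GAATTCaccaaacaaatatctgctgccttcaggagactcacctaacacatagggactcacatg
All 9 lie in introns. The untreated DAB1 place was read 1254 and 1262 times in untreated cells and 0 and 0 times after hemin, and the hemin DAB1 place 0 and 0 times in untreated cells and 685 and 736 times after hemin. The GPC6 pair differs from the rest: its leading places start at 93260350 and 93260976, within 1 kb of each other, yet neither held a read in the other group. Its hemin run, alone among the 9, holds no EcoRI site. That run has CATG at both ends and lies 537 bases from the nearest EcoRI site. Over all member regions, 49.7, 49.8, 50.7 and 50.7% held a whole EcoRI site, against 45.4, 45.5, 48.0 and 47.6% of regions in the rest of the genome. In the untreated libraries 22.2 and 22.7% of member regions held both sites, against 15.5 and 15.8%. An EcoRI site lay within 100 bases of 54.0, 53.7, 56.1 and 56.7% of member regions, against 54.4, 54.4, 57.2 and 56.5% elsewhere.

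The 49 genes were contacted about as densely as the genome around them, with a small difference between groups. Regions per Mb of member sequence, each region counted once, were 14.2 and 14.3 for untreated cells and 15.6 and 16.2 after hemin. Outside the members and the acrocentric chromosomes, which carry the rDNA, the values were 14.8, 14.6, 14.3 and 15.1. The ratio of both was 0.974 ± 0.012 (SD, n = 2) in untreated cells and 1.09 ± 0.015 (SD, n = 2) after hemin. These member values include 4 genes on acrocentric chromosomes (GPC5, GPC6, PCDH9 and NRXN3). With only the 45 members outside them, the ratio was 0.914 in untreated cells and 1.04 after hemin. Over all 49 members, both hemin libraries lay above both untreated libraries, a 1.11-fold difference. The two-sided exact permutation test gave p = 0.333, the smallest that 2 libraries against 2 allow.

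That difference varied with the regions and genes used. With regions of at least 10 reads the ratio was 1.27 in untreated cells and 1.21 after hemin, and with regions of over 100 reads it was 1.41 and 1.39, so that the order of the groups turned in both cases. Regions over 100 reads made up 35.4 and 36.2% of member regions in untreated cells and 32.2 and 32.0% after hemin, against 24.5 to 25.3% in the rest of the genome. The median member region held 38 and 40 reads in untreated cells and 25 and 24 after hemin, against 13 to 15 elsewhere. Members thus held more regions over 100 reads per Mb than the rest of the genome in all 4 libraries. Leaving out GPC5 and PTPRD, the densest members, brought the ratio over all regions to 0.808 and 0.965, and that for regions over 100 reads to 1.12 and 1.19, where the hemin libraries were again the higher ones. Merging regions within 1 kb into 1 place brought the ratio over all 49 genes to 1.02 and 1.13. These settings were chosen after seeing the data. Against 525 other protein-coding genes at least as long as CNTN3, members were denser in total, 1.23-fold in untreated cells and 1.27-fold after hemin. Those genes lay outside the acrocentric chromosomes, which hold 4 members, and this comparison was not made without PTPRD and GPC5. Medians were closer, at 9.96, 9.72, 12.1 and 11.8 regions per Mb for members and 8.98, 9.08, 10.5 and 10.8 for the other long genes.

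**Figure D1:**
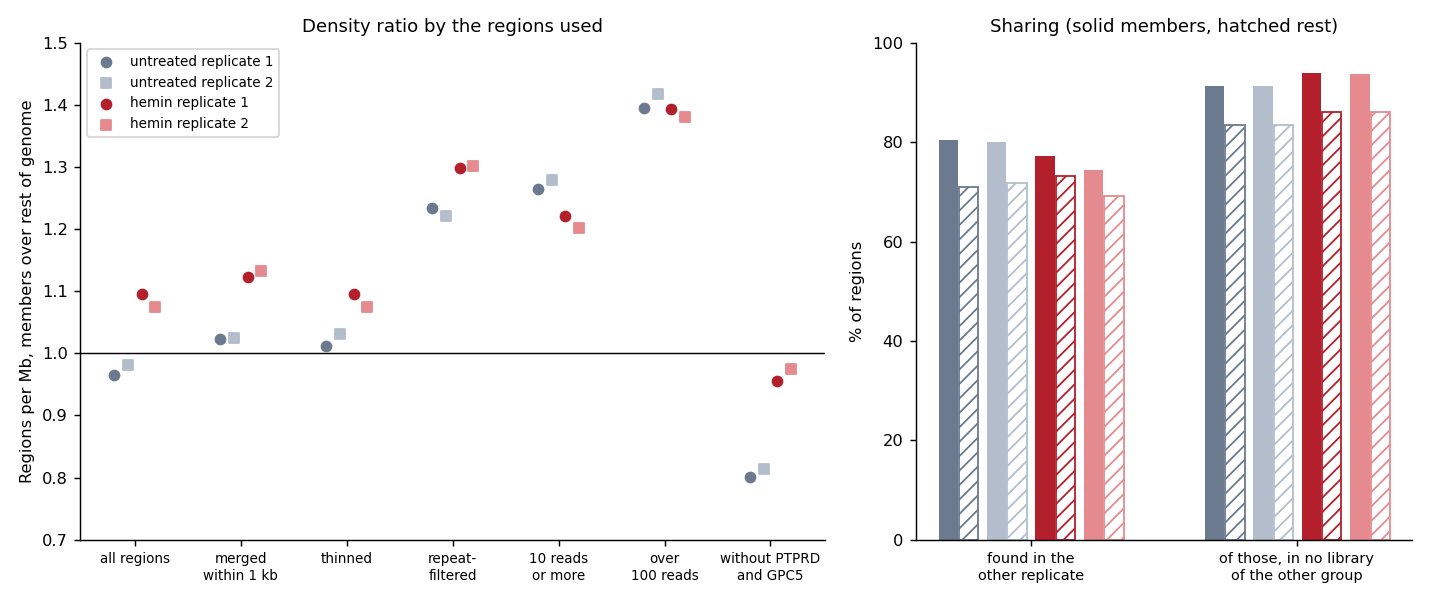
The left panel plots, for 4 libraries, regions per Mb in the 49 members over regions per Mb in the rest of the genome outside acrocentric chromosomes, with 1 column of points for each choice of regions or members and a line at equal density. The right panel gives the % of regions found in the other replicate and, of those, the % found in no library of the other group, with solid bars for members and hatched bars for the rest of the genome. Hemin points lie above untreated points for all regions and below them for regions of at least 10 reads.

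Contact density was uneven among the genes. The 5 densest were GPC5 (a heparan sulfate proteoglycan of the cell surface), PTPRD and PTPRT (receptor tyrosine phosphatases), CSMD2 (a CUB and sushi domain protein of the synapse) and CDH13 (a cadherin without a cytoplasmic tail). GPC5, at chr13:91398621-92873682, had 45.4 and 52.2 regions per Mb in untreated cells and 50.2 and 45.4 after hemin, and its groups overlapped. PTPRD, at chr9:8314246-10613002, had 53.5 and 50.0 against 42.6 and 34.4, with both hemin libraries below both untreated ones. CSMD2, at chr1:33513998-34165842, showed the widest gap of the 5, with 46.0 and 53.7 against 26.1 and 29.1. PTPRT had 36.7 and 40.3 against 34.9 and 32.2, and CDH13 had 35.8 and 31.5 against 35.8 and 37.5.

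The 5 sparsest genes were ERBB4 (the neuregulin receptor), PCDH9 (a protocadherin), CSMD3, SYNE1 and TENM3 (a teneurin), which averaged 3.22, 3.77, 5.56, 5.81 and 6.45 regions per Mb over the 4 libraries. ERBB4 had 4 and 1 regions in untreated cells and 3 and 7 after hemin, and no member was without a region in any library. Only 11 and 13 of the 49 genes exceeded the density of the rest of the genome in the untreated libraries, and 16 and 17 after hemin. Among the other long genes the share above that density was 22.9, 24.8, 32.2 and 28.6%, and among members it was 22.4, 26.5, 32.7 and 34.7%. The median member had 9.96, 9.72, 12.1 and 11.8 regions per Mb, so a few dense genes carried the total.

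**Figure D2:**
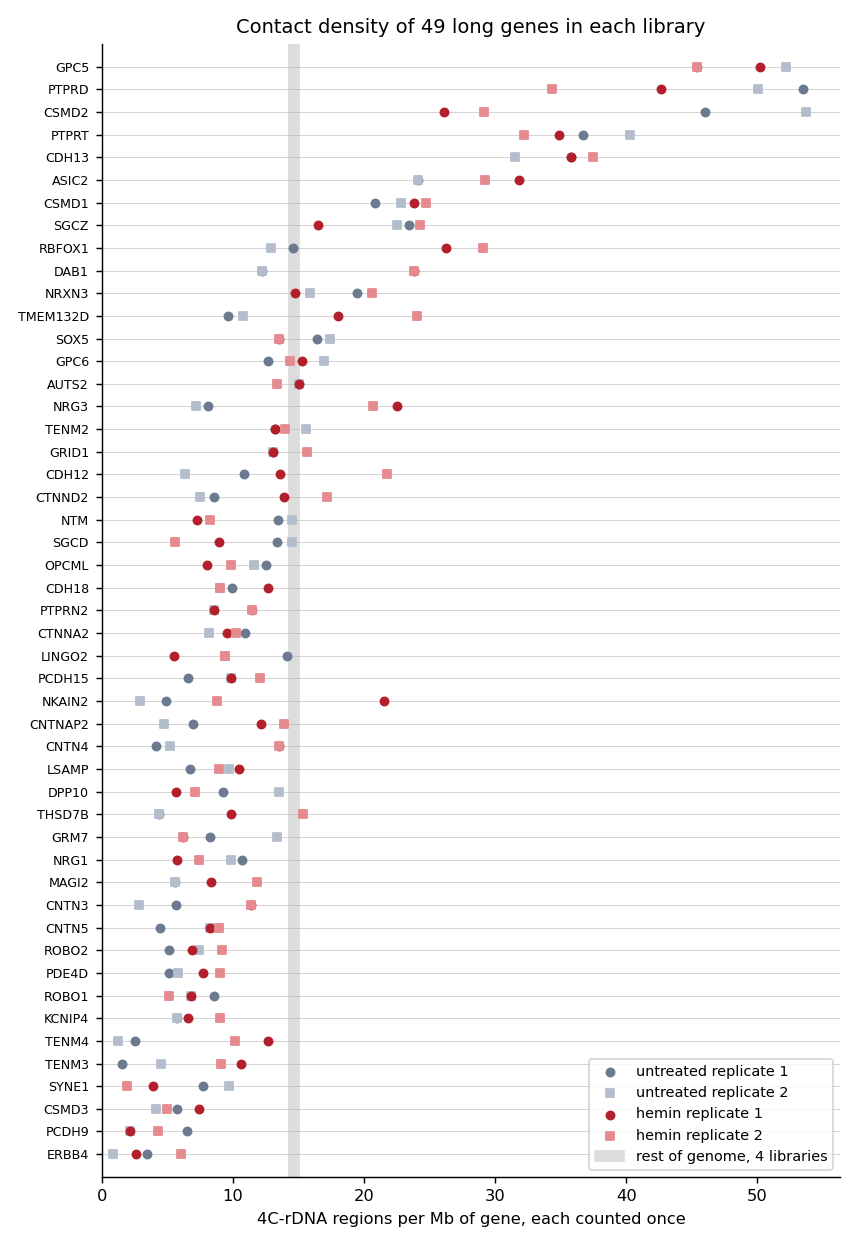
Each row is 1 of the 49 genes, ordered by mean density, and the points give its 4C-rDNA regions per Mb in each of the 4 libraries, each region counted once. The grey band spans the density of the rest of the genome in the 4 libraries, and points of equal value hide each other. GPC5, PTPRD, CSMD2, PTPRT and CDH13 lie to the right of the band in all libraries.

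Density inside a gene went with density beside it for some of these genes and not for others. Over the 4 libraries, GPC5 averaged 48.3 regions per Mb and its flanks (1 Mb on each side) 44.1, and PTPRD averaged 45.1 with 51.2 in its flanks. CDH13 stood out from its surroundings, with 35.1 regions per Mb against 12.1, as did PTPRT with 36.0 against 14.8 and RBFOX1 with 20.7 against 8.88. The opposite was found for ROBO2, a receptor of the Slit guidance cues, with 7.17 regions per Mb in the gene and 27.0 beside it. Across the 49 genes Pearson's r between the log2 values was 0.62, and 30 genes were denser than their flanks. This is a description over genes that share libraries, depth and the copy number of their neighbourhood. Other members were not removed from the flanks. NTM and OPCML, GPC5 and GPC6, and ROBO1 and ROBO2 thus lie partly in each other's flanks.

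**Figure D3:**
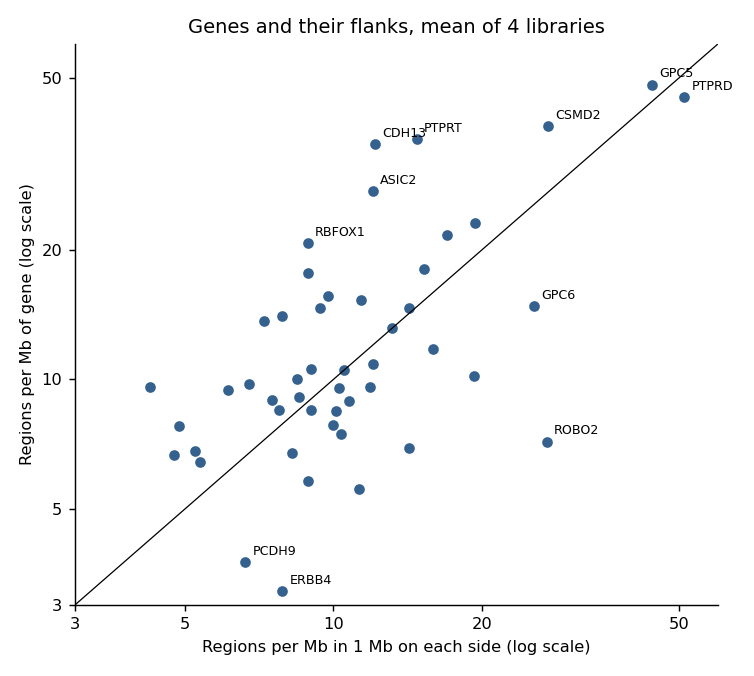
Each point is 1 of the 49 genes, with regions per Mb in the 1 Mb on each side of the gene (x, log scale) against regions per Mb of the gene (y, log scale), both averaged over 4 libraries, and the line marks equal density. CDH13, PTPRT, ASIC2 and RBFOX1 lie above the line, and ROBO2 lies below it.

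The next comparison asked in which genes the number of 4C reads differed after hemin. By edgeR's quasi-likelihood test with Benjamini-Hochberg adjustment over 10965 genes, 23 of the 49 members were called higher after hemin and 19 lower. Over all genes tested, 36.8% were called higher and 32.6% lower, so most genes passed this test whatever their kind. Members were more deeply read, with a median of 7381 reads over the 4 libraries against 608 over all genes tested. The median log2 fold change was 0.18 over members and 0.41 over all genes tested. Scaled to library totals in place of TMM, which moved the median of all genes to 0.68, 26 members were called higher and 12 lower. Of all 10965 genes, 4229 were then called higher and 3358 lower.

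TENM4, SYNE1 and CNTN3 had almost all of their reads in one group only. TENM4, a teneurin that binds partners across the synapse, had 3 and 2 reads in untreated cells and 1682 and 1790 after hemin, and the share of the library was 1137-fold higher (95% exact counting interval, 487 to 3505). CNTN3, a contactin, had 4 and 1 reads against 735 and 750, a 486-fold higher share (208 to 1500.4). SYNE1 had 2512 and 2771 reads in untreated cells and 2 and 2 after hemin, an 806-fold lower share (315 to 2961). The groups did not overlap in any of these genes, which were picked for their fold changes on the same reads. By edgeR the adjusted p was 0.00116 for TENM4, 0.00227 for CNTN3 and 0.00116 for SYNE1. These intervals cover counting error only, since PCR reads without molecular identifiers are not independent molecules. The number of places behind them was small: TENM4 had 2 and 1 regions against 10 and 8, CNTN3 had 2 and 1 against 4 and 4, and SYNE1 had 4 and 5 against 2 and 1.

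Among the other members that rose, GPC6, a glypican like GPC5, had 964 and 1083 reads in untreated cells and 2830 and 3075 after hemin (log2 fold change 1.97, SE 0.055, adjusted p = 0.00116). PTPRN2, a receptor-type phosphatase of secretory vesicles, had 761 and 791 against 1917 and 2025 (1.78, SE 0.043, adjusted p = 0.00116), and 2.41 with repeat-filtered regions. CSMD3 had 176 and 204 against 413 and 399 (1.53, SE 0.099, adjusted p = 0.00174), and it lost its call once repeats were filtered out (0.20, SE 0.15, adjusted p = 0.21). NRG3, a ligand of ERBB4, had 1185 and 1367 against 2574 and 2640 (1.47, SE 0.068, adjusted p = 0.00118), and the call was lost with repeat-filtered regions (1.68, SE 0.84, adjusted p = 0.19). In none of these 4 genes did the groups overlap in reads. The genes were picked for their fold changes on the same reads, and this share was not counted over all genes tested.

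The members that fell most after SYNE1 were DPP10 (a partner subunit of Kv4 potassium channels), PCDH9, ROBO2, AUTS2 (a nuclear regulator of neuronal genes) and SOX5. DPP10 had 3085 and 3214 reads against 329 and 443 (log2 fold change −2.60, SE 0.14, adjusted p = 0.00148), and −4.66 with repeat-filtered regions. PCDH9 had 571 and 505 against 77 and 116 (−2.05, SE 0.23, adjusted p = 0.00613). The leading hemin region of PCDH9, with 97.4 and 79.3% of its hemin reads, also lies in the antisense gene PCDH9-AS2, and with only regions that meet 1 gene the log2 fold change was −5.30 (SE 1.50) and the call was lost (adjusted p = 0.072). ROBO2 had 5165 and 5515 against 1176 and 1243 (−1.71, SE 0.032, adjusted p = 0.00116). The fall in ROBO2 reads came with no fall in places, since its regions numbered 9 and 13 in untreated cells and 12 and 16 after hemin. AUTS2 had 5909 and 5840 reads against 1602 and 1846 (−1.33, SE 0.065, adjusted p = 0.00121), with 18 and 18 regions against 18 and 16. SOX5 had 4505 and 4557 reads against 1331 and 1368 (−1.31, SE 0.037, adjusted p = 0.00116).

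Read by role, most groups held genes called in both directions. Rises and falls here and in the next paragraph are edgeR calls on reads after TMM scaling. Of 7 cadherins, protocadherins and catenins, 5 rose (CDH13, CDH18, PCDH15, CTNNA2 and CTNND2) and 2 fell (CDH12 and PCDH9). Of 5 contactins and neurexin family genes, 3 rose (CNTN3, CNTN5 and CNTNAP2) and NRXN3 fell, with 7745 and 8272 reads in untreated cells and 3761 and 4082 after hemin. Of 4 genes of teneurins and LINGO2, the 3 teneurins TENM2, TENM3 and TENM4 rose and LINGO2 fell. Of 6 genes of axon guidance and growth factor signalling, NRG3 and DAB1 rose and ROBO2, ERBB4 and NRG1 fell. Of 6 genes of channels, glutamate receptors and their partners, GRID1, ASIC2 and NKAIN2 rose and DPP10 fell.

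Of 3 receptor tyrosine phosphatases, PTPRN2 rose and PTPRD and PTPRT fell, and of the 2 glypicans GPC6 rose and GPC5 fell. PTPRD, which held more reads than any other member, had 32437 and 29193 reads in untreated cells and 11806 and 12415 after hemin, which is −0.91 as log2 fold change (SE 0.090, adjusted p = 0.00456). One PTPRD region of 2832 reads was found in the first untreated library only, and without that library the log2 fold change was −0.80. LSAMP rose and NTM fell among the IgLON adhesion molecules, and CSMD3 rose and CSMD2 fell among the CUB and sushi domain proteins. RBFOX1, a splicing factor of neurons and muscle, rose, and its fellow nuclear regulators AUTS2 and SOX5 fell. SGCZ, MAGI2 and SYNE1 fell in the group of sarcoglycans, scaffolds and nuclear envelope, where no gene rose. TMEM132D and PDE4D rose and THSD7B fell. Some falls were small as shares of the library. For CSMD2 the share after hemin over that in untreated cells was 0.979. Its exact counting interval, 0.939 to 1.02, includes no change, so its fall was not beyond counting error on this measure. The ratio was 0.941 for CDH12, 0.929 for GPC5, 0.913 for MAGI2, 0.911 for NRG1 and 0.902 for THSD7B. Their intervals exclude no change. The other members called lower had ratios of 0.865 or less.

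The 7 members not called on reads were CNTN4, GRM7, ROBO1, KCNIP4, SGCD, CSMD1 and OPCML. For CNTN4 and SGCD a single region decided the values. CNTN4, a contactin, had 888 and 890 reads in untreated cells and 540 and 5063 after hemin, and 4483 of the last came from the region chr3:2390978-2391134, which no other library held. SGCD had 614 and 626 reads against 4170 and 461, and 3701 reads of the first hemin library came from chr5:156213410-156213452, likewise absent elsewhere. Without the hemin library concerned, the log2 fold change was −0.22 in place of 2.06 for CNTN4 and −0.03 in place of 2.37 for SGCD, with edgeR's adjusted p at 0.066 and 0.72. Without the other hemin library, edgeR called both genes higher, with log2 fold changes of 2.91 and 3.25. Their sequences are shown because they make the 2 least repeatable values of the list.
CNTN4, hemin replicate 2 only, chr3:2390978-2391134: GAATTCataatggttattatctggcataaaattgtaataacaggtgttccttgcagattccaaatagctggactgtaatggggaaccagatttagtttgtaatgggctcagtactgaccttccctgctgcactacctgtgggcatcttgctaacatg
SGCD, hemin replicate 1 only, chr5:156213410-156213452: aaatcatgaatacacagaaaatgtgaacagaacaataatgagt
The CNTN4 run starts at an EcoRI site and ends at CATG, and the SGCD run holds no EcoRI site. Such regions were rare: of the member regions over 100 reads, 5 of 303 and 4 of 311 for untreated cells and 6 of 303 and 7 of 312 after hemin were missing from the other replicate.

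With each region counted once, so that amplification of a place has no weight, few members differed. Of 5647 genes tested by edgeR, 2.74% were called higher after hemin and 2.23% lower, and of the 49 members 2 were called higher (DAB1 and NRG3) and 0 lower. At an unadjusted p under 0.05 by edgeR there were 12 of the 49 members, and 1316 of the 5647 genes tested. DESeq2 called 0 in either direction, with 7 members and 678 of the 5647 genes at an unadjusted p under 0.05. DAB1, an adaptor of the reelin pathway that positions neurons, had 19 and 19 regions in untreated cells and 37 and 37 after hemin (log2 fold change 0.88, SE 0.29, adjusted p = 0.0485). NRG3 had 9 and 8 against 25 and 23 (1.41, SE 0.41, adjusted p = 0.0485). The groups did not overlap in either gene, and hemin likewise lay above untreated in 32.7% of the 5647 genes tested. Both adjusted p-values lay close to the threshold of 0.05. RBFOX1 had 36 and 32 regions against 65 and 72 (0.93, SE 0.21) and missed the threshold, with an adjusted p of 0.055.

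These calls depended on how a place was counted. Many regions lay close to another, and the mean number of regions per place was 1.75, 1.77, 1.76 and 1.72 when regions within 1 kb were merged, a setting chosen after seeing the data. By edgeR on merged places DAB1 had a log2 fold change of 0.79 (adjusted p = 0.28) and NRG3 1.41 (adjusted p = 0.14). With contacted EcoRI sites in place of regions, also chosen after seeing the data, DAB1 had 0.48 (adjusted p = 0.52) and NRG3 1.41 (adjusted p = 0.13). No member was called by edgeR with merged places, where 8 members had an unadjusted p under 0.05. The same held after thinning every library to the reads of the smallest one, where 12 had. Over all genes tested these counts were 419 of 3438 with merged places and 1323 of 5526 after thinning, and 0 genes were called. Without any one of the 4 libraries, the log2 fold change in regions was 0.87 to 1.04 for DAB1 and 1.31 to 1.62 for NRG3. DAB1 reads changed less than its regions, from 4717 and 5119 to 4563 and 5068, or 0.41 as log2 fold change (SE 0.043) after scaling.

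**Figure D4:**
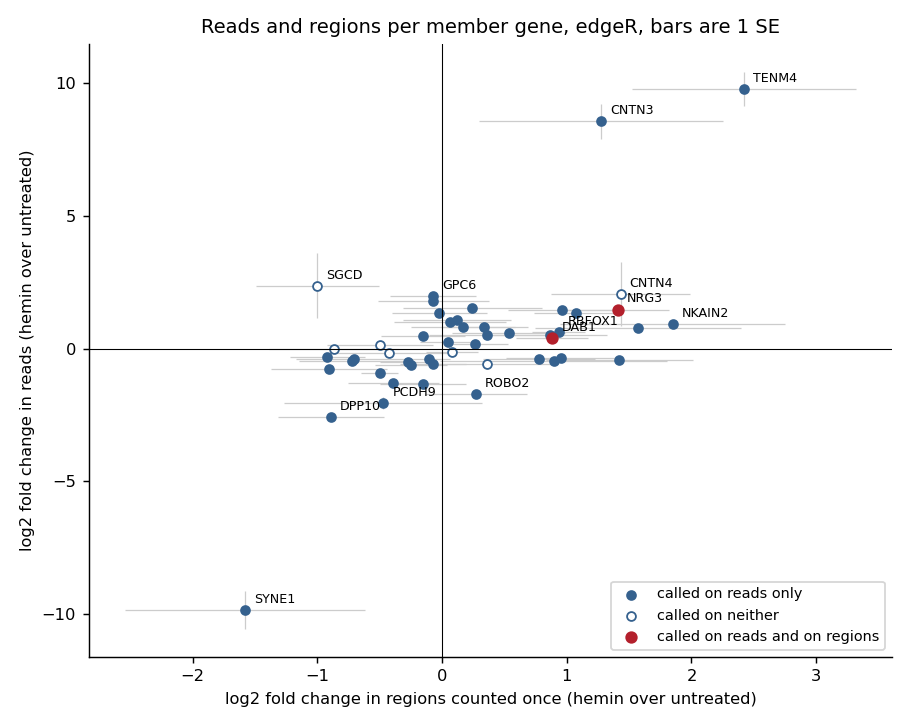
Each point is 1 of the 49 genes, with the edgeR log2 fold change (hemin over untreated) in regions counted once on the x axis and in reads on the y axis, and the bars are 1 SE. DAB1 and NRG3, in red, were called on both measures, filled blue points on reads only and open points on neither, and TENM4, CNTN3 and SYNE1 lie far from the other genes on the y axis.

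Raw region counts of both hemin libraries lay above those of both untreated libraries for 18 members and below them for 11, and the other 20 overlapped. Over the 5647 genes tested these shares were 32.7 and 27.9%, against 36.7 and 22.4% of members. Beside DAB1, NRG3 and RBFOX1, the 18 included CNTNAP2, a neurexin relative, with 16 and 11 regions against 28 and 32, and TENM3, with 1 and 3 against 7 and 6. NKAIN2, which encodes a partner of the sodium pump, had 5 and 3 regions against 22 and 9, so its hemin replicates differed from each other by more than its groups did at their nearest. The 11 included PTPRD, with 123 and 115 against 98 and 79, CSMD2, with 30 and 35 against 17 and 19, and NTM, with 13 and 14 against 7 and 8.

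**Figure D5:**
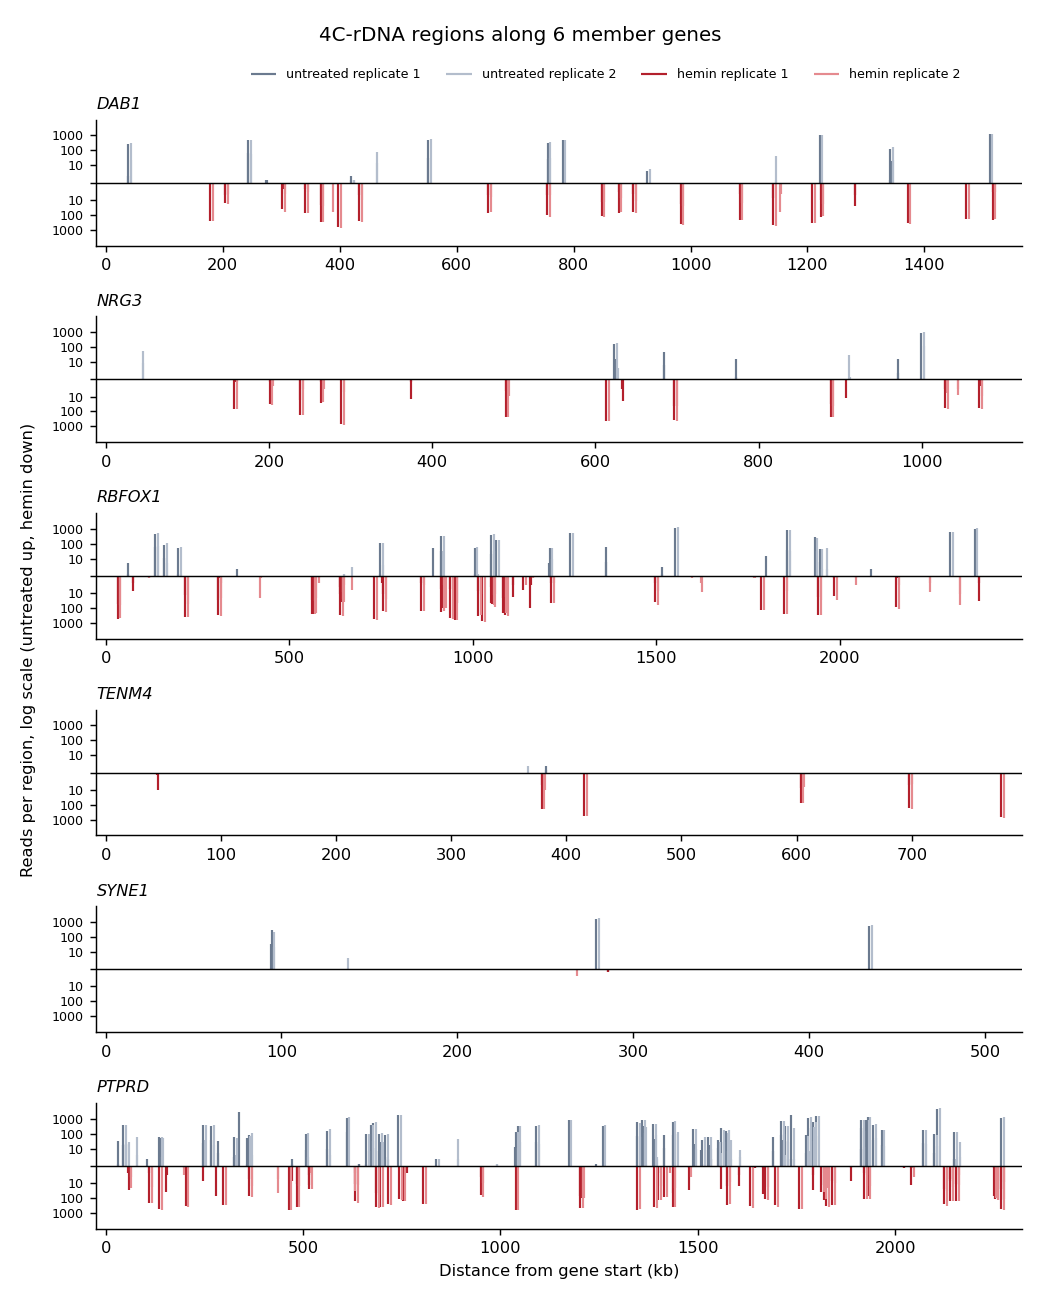
Each stroke is 1 region along 1 of 6 member genes, at its distance in kb from the gene start, with its reads on a log scale, upwards for the 2 untreated libraries and downwards for the 2 hemin libraries. Replicate 2 is drawn 0.3% of the gene length to the right so that both replicates can be seen. Strokes of replicates stand in pairs, most pairs of one group have no counterpart in the other, TENM4 has almost no untreated strokes and SYNE1 almost none after hemin.

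Replicates mostly contacted the same places in these genes, and the groups mostly different ones. Of member regions, 80.5 and 80.0% in the untreated libraries and 77.2 and 74.4% after hemin recurred in the other replicate of the group, with an overlap of at least 1 base. In the rest of the genome these shares were 70.9, 71.8, 73.1 and 69.1%. Of the recurring member regions, 91.3 and 91.3% in untreated cells and 93.8 and 93.7% after hemin were found in neither library of the other group, against 83.4, 83.4, 86.0 and 86.0% in the rest of the genome. Both shares were higher in members than elsewhere in all 4 libraries. Among regions of at least 10 reads, recurrence was 88.9, 87.5, 84.4 and 81.3% in members and 84.9, 85.2, 84.8 and 80.5% elsewhere, with the first hemin library lower in members, and the share absent from the other group stayed higher in members, at 92.7, 92.7, 93.6 and 93.4% against 87.7, 87.7, 89.1 and 89.1%.

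Sequence composition also differed between members and the rest of the genome. Regions made mostly of repeat bases were 46.0, 45.9, 43.9 and 45.5% of member regions and 67.4, 67.2, 61.8 and 62.2% elsewhere. Among regions without a repeat base, the share of recurring regions found in one group only was 94.1 and 94.2% in untreated cells and 95.8 and 95.4% after hemin for members, against 88.4, 88.4, 91.2 and 91.2% elsewhere. Among regions mostly of repeat bases, this share was 87.5, 87.2, 91.8 and 91.5% for members, against 80.2, 80.2, 82.2 and 82.2% elsewhere. The gap of members to the rest was thus present in both kinds of region, and narrower than over all regions within repeat-free ones. Recurrence in the other replicate, by contrast, was 87.9, 87.3, 79.2 and 79.0% for repeat-free member regions and 82.8, 83.5, 80.3 and 76.5% elsewhere, with the first hemin library lower in members. Reads that map to several copies of a repeat can place one contact at many sites, and the part of repeats in the sharing was not tested.

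Counted by cut sites, members held 17444 EcoRI sites, 289.9 per Mb, against 290.3 per Mb in the rest of the genome. A region lay within 100 bases of 2.71 and 2.73% of these sites in untreated cells and of 3.02 and 3.15% after hemin, against 2.83, 2.79, 2.80 and 2.93% elsewhere. Both untreated libraries contacted 407 member sites, both hemin libraries 432, and all 4 libraries 28. The 28 sites were 6.88% of the untreated set and 6.48% of the hemin set, and in the rest of the genome these shares were 11.3 and 11.1%.

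The regions found in all 4 libraries numbered 40 in the first untreated library and lay in 17 of the 49 genes. They were 4.67% of its member regions, against 7.47% of its regions in the rest of the genome. GPC5 held 9 of them, PTPRD 7 and PTPRT 5, which are among the densest genes of the list. Of the 40, 23 consisted mostly of repeat bases, against 1959 of 2761 in the rest of the genome. All other members held none, DAB1, NRG3, ROBO2, NRXN3 and SOX5 among them.

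The leading region of a gene was almost never the same in both groups. It was the same place for 1 of the 49 members, NKAIN2, and for 1.67% of 478 other long genes with regions in both groups. The untreated leading region had no read after hemin in 44 members, and the hemin leading region had no read in untreated cells in 46. For the other long genes these shares were 92.1 and 94.8%, against 89.8 and 93.9% of members. The NKAIN2 place, which also overlaps the antisense gene RNF217-AS1, was read 959 and 1010 times in untreated cells and 701 and 757 times after hemin. THSD7B, a thrombospondin domain protein, had different leading places in the groups, and both were read in all 4 libraries, 1448, 1559, 218 and 241 times for the untreated one and 886, 1033, 719 and 721 times for the hemin one.

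A gene's reads were concentrated in few places. The leading region of each library held 45.7 and 46.2% of a member's reads in the median untreated gene and 37.5 and 37.5% after hemin. More than 50% of the reads lay in 1 region for 21 and 22 members in untreated cells and for 13 and 15 after hemin. An EcoRI site lay within 100 bases of the leading region for 45 members in untreated cells and 44 after hemin. Across the 49 genes, reads correlated between replicates with Pearson's r of 0.997 and 0.937 on the log2 scale and between groups with 0.313 to 0.342, and region counts with 0.936 and 0.934 between replicates and 0.752 to 0.787 between groups. These are descriptions over genes of the same libraries.

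Most contacts were intronic. Exons of all annotated transcripts covered 1.04% of member sequence, and 2 and 3 regions in untreated cells (0.23 and 0.35%) and 17 and 15 after hemin (1.81 and 1.54%) met an exon. AUTS2 gave 6 of these in each hemin library, at 3 places, with 429 and 461 reads, and none in untreated cells. CNTN4, MAGI2, NRXN3, TENM3, CDH13 and GPC6 also had an exonic region in both hemin libraries and in no untreated library, NTM in both untreated libraries and in no hemin library, and PTPRD in all 4. The PTPRD region was read 126 and 136 times in untreated cells and 650 and 656 times after hemin. With so few places this difference was not tested.

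A list of genes related to the members was less densely contacted in total. It held 100 genes, not chosen for how they moved. They were relatives of the members and also genes of other families, such as SLIT2, RELN and NLGN1. The list had 8.60 and 8.47 regions per Mb outside the acrocentric chromosomes in untreated cells and 9.96 and 9.69 after hemin. The member totals of 14.2, 14.3, 15.6 and 16.2 include the 4 acrocentric members, and the median member was nearer, at 9.96, 9.72, 12.1 and 11.8. Of 58 listed genes with enough reads, 21 were called higher after hemin and 20 lower by edgeR, with a median log2 fold change of 0.13. These shares, 36.2 and 34.5%, were near those over all genes. Of 49 with enough regions, 0 were called in either direction by edgeR with regions counted once, 6 had an unadjusted p under 0.05, and DESeq2 called 0 of all 5647 genes.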

How the data were processed

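4C-rDNA libraries were prepared from 2 untreated and 2 hemin-treated samples of K562 cells. The authors trimmed the reads with cutadapt 3.5, aligned them to hg38 with BWA 0.7.17-r1188, filtered them with SAMtools 1.14 and deposited, for each replicate, a list of mapped regions with its read count and sequence. These counts were used as deposited, with no normalization. A repeat-filtered file per group, made by the authors by intersecting replicates with bedtools 2.29.1, carries a deposited coverage signal, and its positions were used here only to select regions. No column lacked a sample (0 columns).

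Deposited sequences were compared with hg38 and at least 99.95% were identical. Gene spans came from GENCODE 44. Regions sharing at least 1 base with a gene (bedtools 2.31.1) were counted once and by reads. Both tables were tested over all genes with edgeR 4.0.16 (quasi-likelihood, TMM, treatment as the only term, Benjamini-Hochberg, threshold 0.05), for genes with at least 10 reads or 5 regions, after a test on simulated data. The study's methods use DESeq2, run here (1.42.0) as an alternative. The SE is edgeR's Wald SE, and at least that of Poisson counting. The members and lists were chosen with earlier results of these data known. Values in all libraries are given for members called on regions, the 6 highest and 6 lowest log2 fold changes among members called on reads with at least 100 mean reads in a group, and the 5 densest and 5 sparsest members, and further genes were named after their values were seen. The labels do not say whether same-numbered libraries were prepared together, and the main fit did not pair them. The deviations of same-numbered libraries from their group means correlated over genes at 0.0049 for reads and 0.010 for regions. Such values cannot show how the libraries were prepared, so a fit with replicate number as a block is given as an alternative.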

Additional observations from a re-analysis of the deposited data

How the results depend on the processing

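On reads, 23 members were called higher and 19 lower with all 4 libraries, against 36.8 and 32.6% of all genes tested. When 1 library was left out, the median log2 fold change was 0.11 to 0.23 over members. Over all genes tested it was then −0.024 to 0.76. With the replicate block, 7 members were called higher and 3 lower, and scaling to library totals gave 12 members lower. Of all 10965 genes, the replicate block called 176 higher and 232 lower, and library totals 3358 lower. On regions counted once, 0 members were called higher with DESeq2, the replicate block, thinning, merging within 1 kb or contacted EcoRI sites, and 0 to 0 without any 1 library. No filter gave 1 higher, library totals 4, repeat-filtered regions 5 higher and 3 lower, and regions of at least 10 reads 6 higher and 1 lower. Over all genes tested, 150 of 12455 were called higher without a filter and 170 of 5647 by library totals. Repeat-filtered regions gave 333 higher and 287 lower of 2393 genes, and regions of at least 10 reads 260 and 201 of 3873. The density ratio of untreated and hemin libraries was 0.914 and 1.04 for members outside the acrocentric chromosomes, 1.23 and 1.27 against other long genes, 0.993 and 1.11 over all bases, 1.27 and 1.21 for regions of at least 10 reads, 1.41 and 1.39 for regions over 100 reads, 1.23 and 1.30 for repeat-filtered regions, 0.863 and 0.944 by reads, 1.02 and 1.13 for merged places and 0.808 and 0.965 without PTPRD and GPC5 (1.12 and 1.19 for their absence among regions over 100 reads). Thinning gave 1.02 in untreated cells. Without 1 replicate of each group the ratio was 0.965 to 0.982 and 1.07 to 1.10. The log2 difference between hemin and untreated ratios was 0.16, and −0.070 for regions of at least 10 reads and −0.020 for those over 100 reads. The cause was not tested.

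Recurrence in the other replicate was 83.1 and 78.6% (untreated and hemin means) within 2.5 kb, 88.2 and 82.9% for regions of at least 10 reads, 87.6 and 79.1% for regions without a repeat base and 71.4 and 71.6% for those mostly of repeats. The share of recurring regions absent from the other group was 80.2 and 84.2%, 92.7 and 93.5%, 94.1 and 95.6%, and 87.4 and 91.7%, in the same order. Merged places, contacted sites, the omission of PTPRD and GPC5 and both repeat classes were chosen after seeing the data. None of the genes named by the rule for reads or regions changed direction under these alternatives. Among their results, 29 fell below the threshold and 181 stayed on their side of it. CNTN4 and SGCD, named after their values were seen, did change direction without 1 hemin library.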
